A study of Mus musculus with 8 samples.

Results

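The genes described here copy DNA and supply its building blocks. They are 43 mouse genes listed by name and function, a list drawn up with earlier results of these data known, out of 17830 gene names on a 1-colour Illumina bead array. They cover the MCM helicase, the licensing of replication origins, helicase activation, the sliding clamp and its loader, the replicative polymerases and primase, single-strand binding and lagging-strand repair, nucleotide supply, and chromatin assembly with topoisomerase. A probe was present for 41 of them (Gins1 and Gins2 had none under these names), and each gene was read from its brightest probe. Of the 41, 36 were tested because their probe was detected (detection p under 0.05 against the array's negative controls) on at least 2 of the 8 arrays. The 5 left untested were Mcm7, Pola1, Prim1 and Pole2, detected on 0 arrays, and Gmnn, detected on 1. Of the 36, 16 were detected on 8 arrays, 16 on 5 to 7 and 4 on 2 to 4.

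The cells were CD8+ T cells from B16.SIY.dsRed tumors, grown from a mouse melanoma line engineered to carry SIY, a model antigen, and dsRed, a red fluorescent protein. The design text names 10 female mice from Taconic Farms, strain C57BL/6 by the labels, with tumors on both flanks that were pooled on day 14. Whether the 10 mice were used per experiment or over both experiments is not stated. Mice and cells were given no treatment, and no genotype or age of the mice is given in the sources used here. Live cells stained for CD8a, CD4 and CD3 were sorted by the costimulatory receptor 4-1BB and the inhibitory receptors LAG3 and PD-1 into 4 populations. Triple-negative cells lacked all 3 receptors, PD-1+ cells had PD-1 alone, LAG3+ cells had LAG3 and no 4-1BB, and double-positive cells had 4-1BB as well as LAG3. For the last 2 populations the labels leave PD-1 unstated. A population had 1 array per experiment, and an experiment pooled mice, so the 2 arrays and the p-values capture variation between pools rather than between animals.

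A cell that is about to divide loads the MCM helicase onto replication origins, unwinds the DNA there, and copies both strands with polymerases held in place by the PCNA clamp. The deoxynucleotides for this come from ribonucleotide reductase and from salvage by thymidine kinase, and both are held low in resting cells. Many of these genes are known targets of E2F transcription factors, which are released when a T cell is activated through its antigen receptor and enters the cell cycle. Naive CD8+ T cells rest outside the cycle, and CD8+ T cells that recognise antigen in a tumor may divide there.

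The promoters of 6 members are printed so that the genes with the smallest p in the first comparison (double-positive with triple-negative), and the mitotic topoisomerase gene Top2a, can be read beside their values. The sequences are from RefSeq on GRCm38.p6, cover 250 bases before to 50 bases after the annotated start, and are written 5′ to 3′ on the strand of the gene. Capitals mark matches on either strand to 3 motifs: an E2F motif (TTT, then CG, GG, CC or GC, then CGC), the CCAAT box (CCAAT) and the cell cycle homology region, CHR (TTTGAA or TTCGAA). Tk1 lies at chr11:117825965-117826264 on the minus strand, Rrm2 at chr12:24708004-24708303, Rrm1 at chr7:102441445-102441744, Mcm5 at chr8:75109259-75109558 and Lig1 at chr7:13278576-13278875, all 4 on the plus strand, and Top2a at chr11:99024140-99024439 on the minus strand.
Tk1: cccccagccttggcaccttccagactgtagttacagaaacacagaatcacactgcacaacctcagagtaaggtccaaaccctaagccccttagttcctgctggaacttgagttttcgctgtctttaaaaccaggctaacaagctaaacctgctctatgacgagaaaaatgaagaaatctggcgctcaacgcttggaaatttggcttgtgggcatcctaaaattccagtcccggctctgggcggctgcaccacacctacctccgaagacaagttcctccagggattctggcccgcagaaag
Rrm2: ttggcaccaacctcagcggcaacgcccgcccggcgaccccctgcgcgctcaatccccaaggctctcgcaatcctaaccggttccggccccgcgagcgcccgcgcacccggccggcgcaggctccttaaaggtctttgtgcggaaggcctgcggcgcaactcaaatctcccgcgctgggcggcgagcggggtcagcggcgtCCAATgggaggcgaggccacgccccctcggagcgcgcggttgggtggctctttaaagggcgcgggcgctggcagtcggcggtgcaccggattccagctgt
Rrm1: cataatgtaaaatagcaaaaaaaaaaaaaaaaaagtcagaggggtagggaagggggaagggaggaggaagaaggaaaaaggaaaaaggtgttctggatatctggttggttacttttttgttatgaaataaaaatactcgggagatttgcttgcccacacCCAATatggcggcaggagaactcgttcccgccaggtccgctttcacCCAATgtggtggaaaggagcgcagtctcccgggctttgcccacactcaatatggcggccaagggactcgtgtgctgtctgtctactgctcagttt
Mcm5: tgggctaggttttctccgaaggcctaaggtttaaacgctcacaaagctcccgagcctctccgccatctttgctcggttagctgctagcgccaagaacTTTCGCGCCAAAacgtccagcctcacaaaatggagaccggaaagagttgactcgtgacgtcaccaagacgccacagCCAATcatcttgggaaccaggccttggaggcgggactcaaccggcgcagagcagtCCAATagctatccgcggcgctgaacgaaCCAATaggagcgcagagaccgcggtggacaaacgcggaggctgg
Lig1: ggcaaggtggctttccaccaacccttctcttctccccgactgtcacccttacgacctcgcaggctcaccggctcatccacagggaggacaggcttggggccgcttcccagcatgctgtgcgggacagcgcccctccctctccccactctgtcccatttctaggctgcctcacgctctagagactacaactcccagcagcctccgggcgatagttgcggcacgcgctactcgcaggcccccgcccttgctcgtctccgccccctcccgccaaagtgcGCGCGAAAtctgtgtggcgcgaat
Top2a: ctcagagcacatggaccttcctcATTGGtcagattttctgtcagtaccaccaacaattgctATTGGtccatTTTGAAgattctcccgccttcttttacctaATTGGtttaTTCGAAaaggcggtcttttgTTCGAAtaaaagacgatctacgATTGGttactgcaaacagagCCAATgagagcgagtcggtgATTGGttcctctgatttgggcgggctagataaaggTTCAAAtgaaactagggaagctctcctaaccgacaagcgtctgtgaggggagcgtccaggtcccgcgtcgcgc
The Mcm5 window held 2 E2F matches that overlap and read as 1 run of capitals, the first at position -153 from the start, and 3 CCAAT boxes. The Lig1 window held 1 E2F match at position 26; this is 1 of 3 annotated starts of Lig1, and it was shown because it is the one with an E2F match. Rrm1 held 2 CCAAT boxes, Rrm2 held 1, and Tk1 held no match to any of the 3 motifs. Top2a held 6 CCAAT boxes and 4 CHR matches and no E2F match.

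Over the 36 of 43 members with a RefSeq promoter, 12 (33.3%) held the E2F motif in at least 1 annotated start, against 3.29% of 17491 protein-coding genes and 2 of 26 mitosis genes (7.69%). The CCAAT box was in 63.9% of members, 42.3% of all genes and 76.9% of the mitosis genes. The CHR was in 19.4% of members, 20.2% of all genes and 73.1% of the mitosis genes. A match is a run of letters and not a tested site. The members without a RefSeq promoter here were Mcm4, Gmnn, Gins1, Gins2, Rfc2, Prim2 and Pole.

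Levels are log2 intensities after background correction and quantile normalization, and the Mcm7 probe, detected on 0 arrays, shows a level without signal, between 4.13 and 4.23. The lowest level of a detected probe differed by array, from 4.34 on triple-negative array 1 to 5.0 on PD-1+ array 2. Undetected readings can therefore lie higher than Mcm7, as for Dut at 4.96 on PD-1+ array 2. Between 5522 and 9044 of 25697 probes were detected per array, fewest on the PD-1+ array of each experiment. Replicate arrays correlated across genes at r = 0.898 (triple-negative), 0.928 (LAG3+) and 0.934 (double-positive) but 0.771 for PD-1+ cells, so a PD-1+ mean joins 2 unlike arrays. The sort was checked on its genes: Cd8b1, the CD8 beta chain, lay between 12.08 and 12.54 on the 8 arrays, while the Cd8a probe was detected on 0. Lag3 lay at 4.64 and 4.32 on the triple-negative arrays and between 8.41 and 9.56 on the other 6, which include the PD-1+ cells sorted as LAG3-negative (8.41 and 8.92). Pdcd1, the gene of PD-1, was dim, at 4.19 and 4.12 on the triple-negative arrays, 5.39 and 4.27 on the PD-1+ arrays, 4.98 and 4.97 on the LAG3+ arrays and 4.94 and 5.26 on the double-positive arrays. It was not detected on PD-1+ array 2, where the lowest level of a detected probe lay above both LAG3+ levels of Pdcd1. This probe therefore neither bears out nor contradicts the label of that array. Tnfrsf9, the gene of 4-1BB, lay at 4.71 and 5.16 on the triple-negative arrays, 6.66 and 8.16 on the PD-1+ arrays, 7.57 and 7.69 on the LAG3+ arrays and 8.96 and 8.84 on the double-positive arrays. It was thus higher on the PD-1+ and LAG3+ arrays, both sorted without 4-1BB, than on the triple-negative arrays, and highest on the double-positive arrays. The arrays are named here by their sorting labels, which rest on surface protein. In RNA from a sorted pool, fewer cells in S phase and less RNA per cell cannot be told apart.

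**Figure D1:**
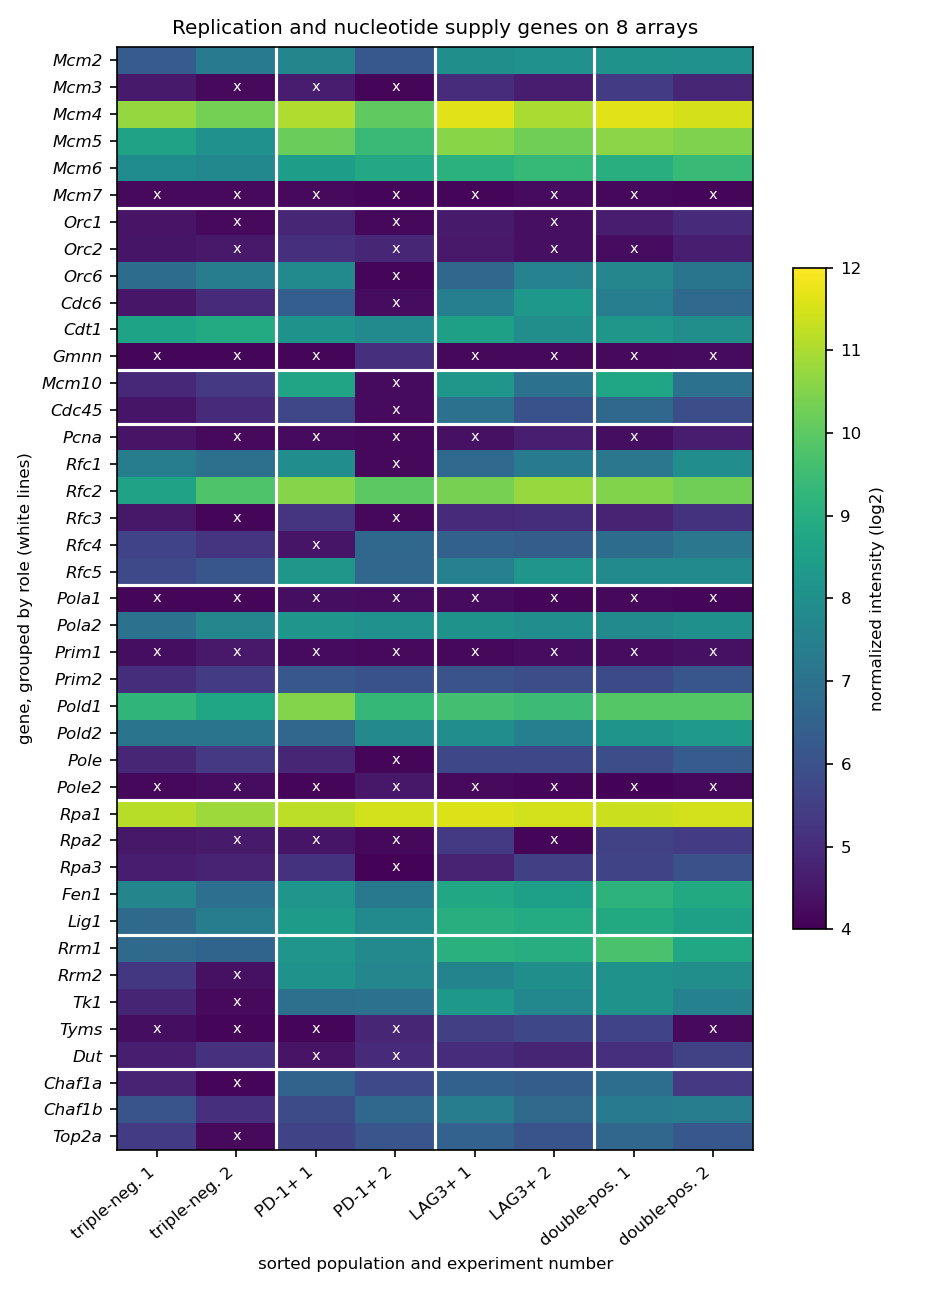
Normalized log2 intensity (colour) of the 41 members with a probe (vertical axis, white lines between role groups) on the 8 arrays (horizontal axis, by population and experiment number); a cross marks a probe that was not detected on that array. Tk1 and Rrm2 are dark on both triple-negative arrays and bright on the other 6, and a column of crosses stands on PD-1+ array 2.

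The nucleotide supply genes held every member that passed the test in any of the 7 comparisons: Rrm1, Rrm2 and Tk1. Tk1 encodes thymidine kinase, the salvage enzyme of dividing cells, which phosphorylates thymidine. Its level was 4.82 and 4.20 on the triple-negative arrays (experiments 1 and 2), 6.95 and 7.0 on the PD-1+ arrays, 8.25 and 7.74 on the LAG3+ arrays and 8.07 and 7.51 on the double-positive arrays. The triple-negative arrays lay lowest, the PD-1+ arrays came next, and the LAG3+ and double-positive arrays overlapped above both. Of the 2 triple-negative arrays only the first detected Tk1, so the folds against these cells rest in part on a level without signal. Tk1 rose 9.73-fold in double-positive against triple-negative cells (log2 change 3.28 ± 0.38, standard error, limma adjusted p = 0.0164). It rose 11.2-fold in LAG3+ against triple-negative cells (3.49 ± 0.38, limma adjusted p = 0.0360, or 0.0513 with the experiment as a block). In PD-1+ cells it was 5.54-fold higher and did not pass (2.47 ± 0.38, limma adjusted p = 0.0528). In experiment 1, where each population's array detected it, the differences from triple-negative cells were 3.25, 3.43 and 2.13 in double-positive, LAG3+ and PD-1+ cells. A second Tk1 probe, detected on 5 arrays, differed by 1.27 between double-positive and triple-negative cells, so the size of the change depends on the probe.

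Rrm2 encodes the small subunit of ribonucleotide reductase, which makes deoxynucleotides and is present mainly in S phase. Its level was 5.29 and 4.36 on the triple-negative arrays, 8.12 and 7.69 on the PD-1+ arrays, 7.59 and 7.98 on the LAG3+ arrays and 8.10 and 7.95 on the double-positive arrays. The 6 receptor-positive arrays lay between 7.59 and 8.12, all above both triple-negative arrays, of which the second did not detect Rrm2. Rrm2 rose 9.16-fold in double-positive cells (3.20 ± 0.41, limma adjusted p = 0.0228) and 8.45-fold in PD-1+ cells (3.08 ± 0.41, limma adjusted p = 0.0445, or 0.0530 with the block), both against triple-negative cells. In LAG3+ cells it was 7.78-fold higher and did not pass (2.96 ± 0.41, limma adjusted p = 0.0689). In experiment 1, where each array detected Rrm2, the differences were 2.81, 2.30 and 2.83 in double-positive, LAG3+ and PD-1+ cells. A second Rrm2 probe differed by 3.10, 2.80 and 2.34 in double-positive, LAG3+ and PD-1+ cells.

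Rrm1 encodes the large, catalytic subunit of the same enzyme. Its level was 6.76 and 6.58 on the triple-negative arrays, 8.17 and 7.76 on the PD-1+ arrays, 9.09 and 8.99 on the LAG3+ arrays and 9.70 and 8.78 on the double-positive arrays. The order was that of Tk1, with PD-1+ arrays between the triple-negative arrays and the rest. Rrm1 rose 5.94-fold in double-positive against triple-negative cells (2.57 ± 0.39, limma adjusted p = 0.0406). It was 5.18-fold higher in LAG3+ cells (2.37 ± 0.39, limma adjusted p = 0.0868) and 2.46-fold higher in PD-1+ cells (1.30 ± 0.39, limma adjusted p = 0.196), and neither passed.

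The other nucleotide supply members were dim. Dut, which encodes the phosphatase that keeps uracil out of DNA, had levels of 4.66 and 5.14 on the triple-negative arrays, 4.43 and 4.96 on the PD-1+ arrays, 5.02 and 4.82 on the LAG3+ arrays and 5.12 and 5.57 on the double-positive arrays. Its arrays overlapped between double-positive and triple-negative cells (0.44 ± 0.36, limma adjusted p = 0.751), and neither PD-1+ array detected it. Tyms, which encodes thymidylate synthase, was detected on 3 arrays, both LAG3+ arrays (5.52 and 5.73) and double-positive array 1 (5.62). It was at least 2.23-fold higher in LAG3+ than in triple-negative cells, where neither array detected it, and did not pass (limma adjusted p = 0.424). The other Tyms probes, detected on 2, 1, 0 and 0 arrays, differed by 0.27, -0.26, -0.04 and 0.03, so the rise rests on 1 probe.

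**Figure D2:**
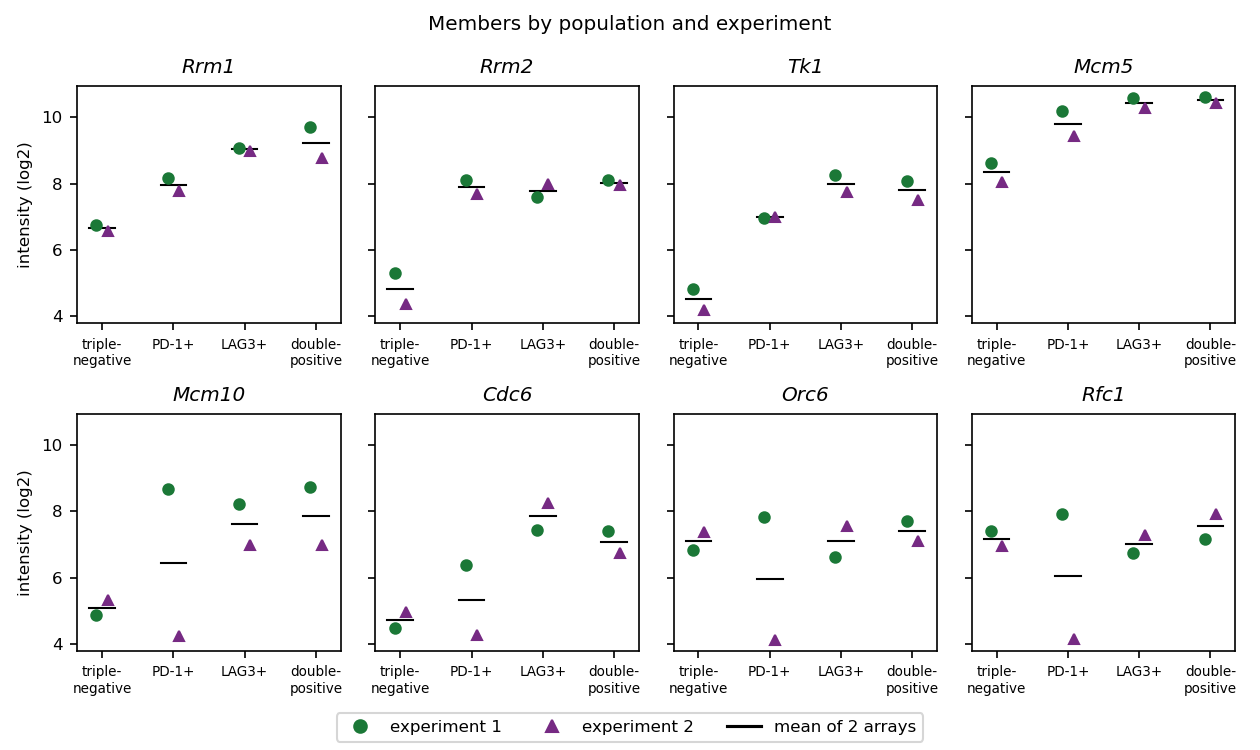
Log2 intensity (vertical axis) of 8 members in the 4 populations (horizontal axis); circles are experiment 1, triangles experiment 2, and a bar is the mean of 2 arrays. In the top panels both arrays of each receptor-positive population lie above both triple-negative arrays; in the bottom panels PD-1+ array 2 lies between 4.12 and 4.28 and PD-1+ array 1 between 6.39 and 8.67.

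Of the MCM helicase, the ring that unwinds DNA, 5 of 6 members were tested and 0 passed. Mcm5 had levels of 8.62 and 8.05 on the triple-negative arrays, 10.18 and 9.42 on the PD-1+ arrays, 10.57 and 10.27 on the LAG3+ arrays and 10.62 and 10.44 on the double-positive arrays. Both triple-negative arrays lay below the other 6. Mcm5 was 4.57-fold higher in double-positive than in triple-negative cells (2.19 ± 0.39, limma adjusted p = 0.0627) and passed only with the experiment as a block (limma adjusted p = 0.0425). The group's brightest probe was that of Mcm4, with 10.72 and 10.31 on the triple-negative arrays, 11.04 and 10.06 on the PD-1+ arrays, 11.64 and 10.98 on the LAG3+ arrays and 11.65 and 11.47 on the double-positive arrays. Mcm4 differed by 1.04 ± 0.44 between double-positive and triple-negative cells (limma adjusted p = 0.365) and overlapped between PD-1+ and triple-negative cells (0.03 ± 0.44, limma adjusted p = 0.984). The other Mcm4 probes were detected on 0 arrays. Mcm6 differed by 1.41 ± 0.33 in double-positive cells (limma adjusted p = 0.112), with 1.43 and 1.69 by its other detected probes, and Mcm2 by 1.29 ± 0.55 (limma adjusted p = 0.369). Mcm3, the smallest change of the group, was dim, with 4.56 and 4.22 on the triple-negative arrays, 4.63 and 4.11 on the PD-1+ arrays, 5.02 and 4.60 on the LAG3+ arrays and 5.38 and 4.87 on the double-positive arrays (0.73 ± 0.37, limma adjusted p = 0.475). Triple-negative array 2 and both PD-1+ arrays did not detect it.

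The origin licensing genes did not move as 1 group. Cdc6, which loads MCM onto origins, had levels of 4.48 and 4.98 on the triple-negative arrays, 6.39 and 4.28 on the PD-1+ arrays, 7.45 and 8.25 on the LAG3+ arrays and 7.42 and 6.74 on the double-positive arrays. The 4 LAG3-sorted arrays lay above the other 4, and it differed by 2.35 ± 0.70 in double-positive (limma adjusted p = 0.200) and 3.12 ± 0.70 in LAG3+ cells (limma adjusted p = 0.181) against triple-negative cells. The other Cdc6 probes were detected on 0 arrays, so this reading rests on 1 probe. Cdt1 encodes the partner of Cdc6 in loading. Its levels were 8.63 and 8.90 on the triple-negative arrays, 8.11 and 7.79 on the PD-1+ arrays, 8.55 and 7.95 on the LAG3+ arrays and 8.22 and 7.94 on the double-positive arrays. Cdt1 was the only tested member whose highest mean was in triple-negative cells, and each receptor-positive array lay below both triple-negative arrays, but no comparison passed (-0.68 ± 0.35 in double-positive cells, limma adjusted p = 0.480). Of the origin recognition complex, which marks origins, Orc1, Orc2 and Orc6 differed by 0.48 ± 0.36, -0.03 ± 0.31 and 0.31 ± 1.08 between double-positive and triple-negative cells, with limma adjusted p of 0.706, 0.994 and 0.982. Gmnn, which encodes the Cdt1 inhibitor geminin, was detected only on PD-1+ array 2 (5.08).

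Helicase activation was read from Mcm10 and Cdc45, which help turn the loaded ring into a moving helicase. Mcm10 had levels of 4.88 and 5.32 on the triple-negative arrays, 8.67 and 4.23 on the PD-1+ arrays, 8.22 and 7.0 on the LAG3+ arrays and 8.74 and 6.98 on the double-positive arrays. The PD-1+ arrays held both a level near the highest and the lowest of the 8. In double-positive cells Mcm10 differed by 2.76 ± 1.35 (limma adjusted p = 0.457), and by 0.84 through another probe detected on 3 arrays. Cdc45 had levels of 4.45 and 4.94 on the triple-negative arrays, 5.72 and 4.24 on the PD-1+ arrays, 6.98 and 6.01 on the LAG3+ arrays and 6.69 and 5.93 on the double-positive arrays. The 4 LAG3-sorted arrays lay above the other 4, with a change of 1.61 ± 0.60 in double-positive against triple-negative cells (limma adjusted p = 0.303). A further Cdc45 probe was detected on 0 arrays.

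Among the clamp and its loader, Pcna, the sliding clamp, was detected on only 3 arrays, so this probe says little about it. Its levels were 4.41 and 4.20 on the triple-negative arrays, 4.25 and 4.17 on the PD-1+ arrays, 4.36 and 4.67 on the LAG3+ arrays and 4.30 and 4.60 on the double-positive arrays, all near the level without signal. Rfc5, a small subunit of the clamp loader, had levels of 5.76 and 6.13 on the triple-negative arrays, 8.23 and 6.64 on the PD-1+ arrays, 7.50 and 8.17 on the LAG3+ arrays and 7.79 and 7.78 on the double-positive arrays. All 6 receptor-positive arrays lay above both triple-negative arrays, and the change in double-positive cells was 1.84 ± 0.55 (limma adjusted p = 0.200). Rfc2, the group's brightest probe, had levels of 8.61 and 9.81 on the triple-negative arrays, 10.55 and 9.99 on the PD-1+ arrays, 10.36 and 10.76 on the LAG3+ arrays and 10.48 and 10.28 on the double-positive arrays (1.17 ± 0.47, limma adjusted p = 0.339). Rfc3 and Rfc4 differed by 0.66 ± 0.42 and 1.58 ± 0.68 in double-positive cells, with limma adjusted p of 0.622 and 0.376, and a second Rfc4 probe by 0.27. Rfc1, the large subunit, overlapped between all populations (0.37 ± 1.08, limma adjusted p = 0.976).

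Of the polymerase and primase genes 5 of 8 were tested and 0 passed. Pold1, the catalytic subunit of polymerase delta, had levels of 9.23 and 8.71 on the triple-negative arrays, 10.52 and 9.33 on the PD-1+ arrays, 9.60 and 9.49 on the LAG3+ arrays and 9.88 and 9.89 on the double-positive arrays (0.92 ± 0.45 in double-positive cells, limma adjusted p = 0.455). Pold2, an accessory subunit of the same enzyme, had levels of 7.08 and 7.08 on the triple-negative arrays, 6.64 and 7.77 on the PD-1+ arrays, 7.94 and 7.45 on the LAG3+ arrays and 8.13 and 8.33 on the double-positive arrays (1.15 ± 0.44, limma adjusted p = 0.310). Both lay higher on the LAG3-sorted arrays than on the triple-negative arrays, without overlap. Pola2, of the polymerase alpha complex, had the smallest change of the group, with 6.97 and 7.69 on the triple-negative arrays, 8.21 and 8.04 on the PD-1+ arrays, 8.10 and 7.92 on the LAG3+ arrays and 7.83 and 8.01 on the double-positive arrays (0.59 ± 0.35, limma adjusted p = 0.579). Pole, the catalytic subunit of polymerase epsilon, differed by 1.03 ± 0.38 in double-positive (limma adjusted p = 0.294) and -0.59 ± 0.38 in PD-1+ cells (limma adjusted p = 0.533), both against triple-negative cells. Prim2, the large primase subunit, differed by 0.76 ± 0.31 in double-positive cells (limma adjusted p = 0.359).

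On the lagging strand, Fen1, the flap endonuclease that trims RNA primers, had levels of 7.64 and 6.91 on the triple-negative arrays, 8.20 and 7.22 on the PD-1+ arrays, 8.81 and 8.51 on the LAG3+ arrays and 9.16 and 8.87 on the double-positive arrays. Lig1, the ligase that seals the fragments, had levels of 6.76 and 7.36 on the triple-negative arrays, 8.43 and 7.81 on the PD-1+ arrays, 9.01 and 8.91 on the LAG3+ arrays and 8.85 and 8.55 on the double-positive arrays. For both genes the 4 LAG3-sorted arrays lay above the other 4. The changes in double-positive against triple-negative cells were 1.74 ± 0.44 for Fen1 (limma adjusted p = 0.143) and 1.64 ± 0.37 for Lig1 (limma adjusted p = 0.105), while another Lig1 probe, detected on 2 arrays, differed by 0.13. Rpa1, the large subunit of the single-strand binding protein RPA, was bright everywhere, with 11.15 and 10.82 on the triple-negative arrays, 11.21 and 11.45 on the PD-1+ arrays, 11.58 and 11.46 on the LAG3+ arrays and 11.36 and 11.46 on the double-positive arrays. Its change of 0.42 ± 0.30 was the smallest of its group (limma adjusted p = 0.688), and Rpa2 and Rpa3 differed by 0.92 ± 0.44 and 1.13 ± 0.46 (limma adjusted p = 0.441 and 0.348).

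The last 3 members package and untangle the new DNA. Chaf1b, a subunit of the histone chaperone CAF-1, had levels of 6.08 and 5.10 on the triple-negative arrays, 5.87 and 6.68 on the PD-1+ arrays, 7.35 and 6.78 on the LAG3+ arrays and 7.29 and 7.35 on the double-positive arrays. Top2a, the topoisomerase that separates sister chromatids, had levels of 5.42 and 4.20 on the triple-negative arrays, 5.65 and 6.10 on the PD-1+ arrays, 6.53 and 6.07 on the LAG3+ arrays and 6.64 and 6.16 on the double-positive arrays. Both were higher on each LAG3-sorted array than on either triple-negative array, and triple-negative array 2 did not detect Top2a or Chaf1a. In double-positive cells Chaf1b differed by 1.73 ± 0.47, Chaf1a, the other CAF-1 subunit on the list, by 1.66 ± 0.57 and Top2a by 1.59 ± 0.48, and none of the 3 passed (limma adjusted p = 0.161, 0.256 and 0.204).

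**Figure D3:**
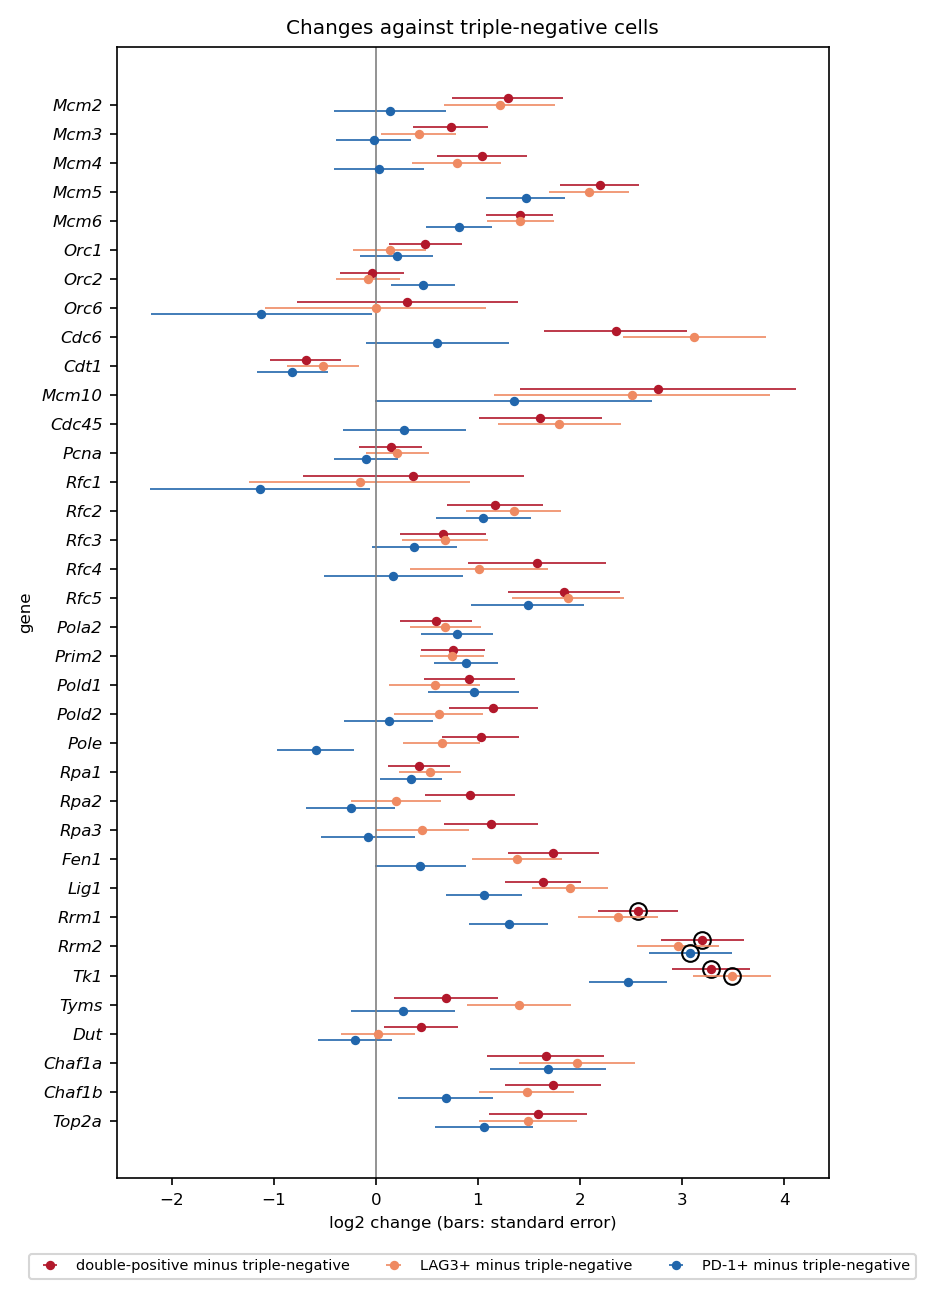
Log2 change against triple-negative cells (horizontal axis, bars are standard errors) of the 36 tested members (vertical axis, by role) in double-positive, LAG3+ and PD-1+ cells; circled points passed limma at an adjusted p under 0.05. The 5 circled points are Rrm1, Rrm2 and Tk1 in double-positive cells, Tk1 in LAG3+ cells and Rrm2 in PD-1+ cells, and the 3 comparisons share the same triple-negative arrays.

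The double-positive against triple-negative comparison called 3 of the 36 tested members higher and 0 lower, where 0.405% of 7893 tested genes were called higher. Both double-positive arrays lay above both triple-negative arrays for 29 members, against 22.6% of tested genes, and below them for 1 (Cdt1), against 21.7%. The median change of the 36 was 1.14 (1.08 in experiment 1 and 1.09 in experiment 2), and that of all tested genes was -0.01. A gene detected only where it is high had to differ to be tested, so the 25 members detected on both triple-negative arrays were read apart. Of these, 24 were above 0 in double-positive cells, 22 in LAG3+ cells and 19 in PD-1+ cells, with medians of 1.17, 1.01 and 0.44.

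The LAG3+ against triple-negative comparison uses the same triple-negative arrays. It called 1 member, Tk1, against 0.076% of tested genes called higher, and 28 members had both LAG3+ arrays above both triple-negative arrays, against 19.2% of tested genes. The members' median was 0.90 and that of all genes -0.01. PD-1+ against triple-negative cells called 1 member, Rrm2, against 0.228% of genes, and 15 members lay above without overlap, against 17.6% of genes. The members' median was 0.41, with 0.59 in experiment 1 and 0.30 in experiment 2, against -0.04 for all genes. Without PD-1+ array 2, which detected the fewest probes, the median was 0.79 and Rrm2 differed by 3.29. With 2 arrays in a population, an exact permutation test of 1 gene could not go below p = 0.333.

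The 3 comparisons among receptor-positive populations called 0 members by limma. Between double-positive and LAG3+ cells 0% of tested genes were called higher and 0 members had an unadjusted p under 0.05. There 10 members had both double-positive arrays above both LAG3+ arrays, against 17.2% of genes, and the members' median was 0.10. For Tk1 the change was -0.20 with a 95% interval from -1.11 to 0.71, for Rrm2 0.24 with an interval from -0.72 to 1.20, and for Mcm10 0.25 with an interval from -2.95 to 3.46. Differences inside these intervals could not be resolved with 2 arrays each. Against PD-1+ cells, double-positive cells called 0 members, where 0.0253% of genes were called higher. At an unadjusted p under 0.05, 6 members (16.7%) were higher, against 8.27% of genes. Non-overlap upward was found for 20 members, against 24.8% of genes, with a median of 0.69 (0.38 without PD-1+ array 2). LAG3+ against PD-1+ cells called 0 members, where 0.0507% of genes were called higher. At an unadjusted p under 0.05, 5 members (13.9%) were higher, against 6.52% of genes. Here 14 members lay above without overlap, against 22.3% of genes, with a median of 0.51 (0.27 without PD-1+ array 2).

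The LAG3 gate divides the 8 arrays into 4 and 4. Against the LAG3-negative populations, Tk1 (2.15 ± 0.27, limma adjusted p = 0.0282) and Rrm1 (1.82 ± 0.28, limma adjusted p = 0.0408) rose in the LAG3-sorted populations, 2 of 36 members where 0.519% of genes were called higher. The LAG3-negative side averages triple-negative with PD-1+ cells. Against PD-1+ cells alone, Tk1 differed by 0.81 in double-positive and 1.02 in LAG3+ cells (limma adjusted p = 0.387 and 0.377). Rrm1 differed there by 1.27 and 1.07 (limma adjusted p = 0.209 and 0.358), and neither gene passed. All 4 LAG3-sorted arrays lay above all 4 LAG3-negative arrays for 11 members, against 4.66% of genes: Mcm2, Mcm5, Mcm6, Cdc6, Cdc45, Pole, Fen1, Lig1, Rrm1, Tk1 and Chaf1b. Rrm2 was not among them, because at the probe used its PD-1+ arrays reached the level of the LAG3-sorted arrays (1.54 ± 0.29, limma adjusted p = 0.0666). At its second probe the double-positive mean lay 0.75 and the LAG3+ mean 0.45 above the PD-1+ mean. Mcm5 differed by 1.41 ± 0.27 (limma adjusted p = 0.0713) and Cdc6 by 2.43 ± 0.50 (limma adjusted p = 0.0767).

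The calls rest on few arrays. Leaving out either triple-negative, LAG3+ or double-positive array took the double-positive against triple-negative count from 3 members to 0, and leaving out either PD-1+ array, which enters through the shared spread, took it to 5. The LAG3+ count went from 1 to 0 without any 1 of those 6 arrays and to 3 without either PD-1+ array. The PD-1+ count went from 1 to 0 without any 1 of the 6, and to 4, of which 2 were lower, without PD-1+ array 1. The count by the LAG3 gate went from 2 to 0 without any 1 of the 6, to 13 without PD-1+ array 1 and to 4 without PD-1+ array 2.

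The 2 PD-1+ arrays gave unlike readings of these genes, as of all tested genes. On array 1, 30 of the 41 members with a probe were detected and on array 2, 22, against 33 to 35 on each LAG3+ and double-positive array and 35 and 25 on the triple-negative arrays. Of all 7893 tested genes, 5172 were detected on PD-1+ array 1 and 4341 on PD-1+ array 2. On the LAG3+ and double-positive arrays 5785 to 6728 were detected, and on the triple-negative arrays 6872 and 5555. The lower detection on PD-1+ array 2 was thus not particular to the members. The 7 members Orc6, Cdc6, Mcm10, Cdc45, Rfc1, Pole and Rpa3 were detected on every array but PD-1+ array 2. Orc6 had levels of 6.82 and 7.37 on the triple-negative arrays, 7.83 and 4.12 on the PD-1+ arrays, 6.63 and 7.55 on the LAG3+ arrays and 7.71 and 7.09 on the double-positive arrays. Rfc1 had levels of 7.39 and 6.96, 7.92 and 4.16, 6.75 and 7.29, and 7.17 and 7.92 in the same order. On the other 7 arrays Orc6 lay between 6.63 and 7.83 and Rfc1 between 6.75 and 7.92. In the PD-1+ population 27 of the 36 tested members were higher on array 1, 4 of them by over 2 log2 units, while 1 was higher by over 2 on array 2 (Rfc4, 4.47, not detected, and 6.71). The median difference, array 1 minus array 2, was 0.54 for the members and 0.02 for all tested genes. The members thus leaned toward array 1, while all tested genes did not. The standard deviation of the members' replicate differences was 1.32 for the PD-1+ arrays against 0.57 (triple-negative), 0.52 (LAG3+) and 0.59 (double-positive), whereas the standard errors given here pool the spread over the 4 populations. Over all 7893 tested genes the same standard deviation was 1.27 (PD-1+), 0.83 (triple-negative), 0.70 (LAG3+) and 0.67 (double-positive).

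Melanoma RNA differed between arrays as well. Of 10 melanoma markers, 9 had a probe (not Sox10) and 6 were tested, and Tyr and Mitf were detected on 0 arrays. The summed linear intensity of the 6 was 224.7 and 192.9 on the triple-negative arrays, 822.2 and 4525 on the PD-1+ arrays, 512.4 and 2288 on the LAG3+ arrays and 291.5 and 2381 on the double-positive arrays. It was higher on each receptor-positive array than on either triple-negative array, and higher in experiment 2 for each receptor-positive population. The summed intensity of the 36 tested members was 7669 and 7115 on the triple-negative arrays, 13030 and 9159 on the PD-1+ arrays, 15380 and 13780 on the LAG3+ arrays and 16000 and 14500 on the double-positive arrays. Between double-positive and triple-negative cells the melanoma markers' median change was 0.39 in experiment 1 and 2.86 in experiment 2, and that of the members was 1.08 and 1.09. On double-positive array 1 the melanoma sum was 291.5, against 224.7 on triple-negative array 1, and Tk1, Rrm2 and Rrm1 were there 3.25, 2.81 and 2.94 above triple-negative array 1. The part of tumor RNA in the members' values was not tested in any of the populations, double-positive cells included.

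The summed signal of macrophage and of class II markers, and the level of the 1 tested B cell marker, were highest on the PD-1+ arrays. Of 12 macrophage and monocyte markers 11 had a probe and 5 were tested, with a median change against triple-negative cells of -0.35 in double-positive, -0.07 in LAG3+ and 1.52 in PD-1+ cells. Only 3 of these 5 were above 0 in PD-1+ cells, and the lowest change there was -0.25. The 5 markers' median change in PD-1+ cells was 0.22 in experiment 1 and 1.43 in experiment 2. Their summed linear intensity was 132.1 and 233.8 on the triple-negative arrays, 301.7 and 1194 on the PD-1+ arrays, 173.0 and 141.9 on the LAG3+ arrays and 107.5 and 113.5 on the double-positive arrays, and Itgam and C1qc were detected on 0 arrays. The 5 tested of 10 dendritic cell and class II markers had medians of -0.89, -0.41 and 1.21 in the same order. Their sum was 823.0 and 315.0 on the triple-negative arrays, 984.2 and 1368 on the PD-1+ arrays, 484.2 and 242.5 on the LAG3+ arrays and 326.5 and 196.4 on the double-positive arrays, while Itgax, Flt3, Xcr1 and Clec9a were detected on 0 arrays. Both sums were higher on each PD-1+ array than on the other 6. Of 6 B cell markers only Cd79b was tested, at 6.71 and 5.65 on the triple-negative arrays, 8.0 and 7.96 on the PD-1+ arrays, 5.03 and 6.34 on the LAG3+ arrays and 4.27 and 4.15 on the double-positive arrays, and Cd79a, Ms4a1, Pax5 and Cr2 were detected on 0. Against PD-1+ cells the 3 lists had medians of -2.17, -2.15 and -3.77 in double-positive cells and -1.76, -1.61 and -2.29 in LAG3+ cells, in the order given, and 0 of these markers passed in any of the 7 comparisons. The part of other immune cells in the members' changes with PD-1+ cells was not tested.

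**Figure D4:**
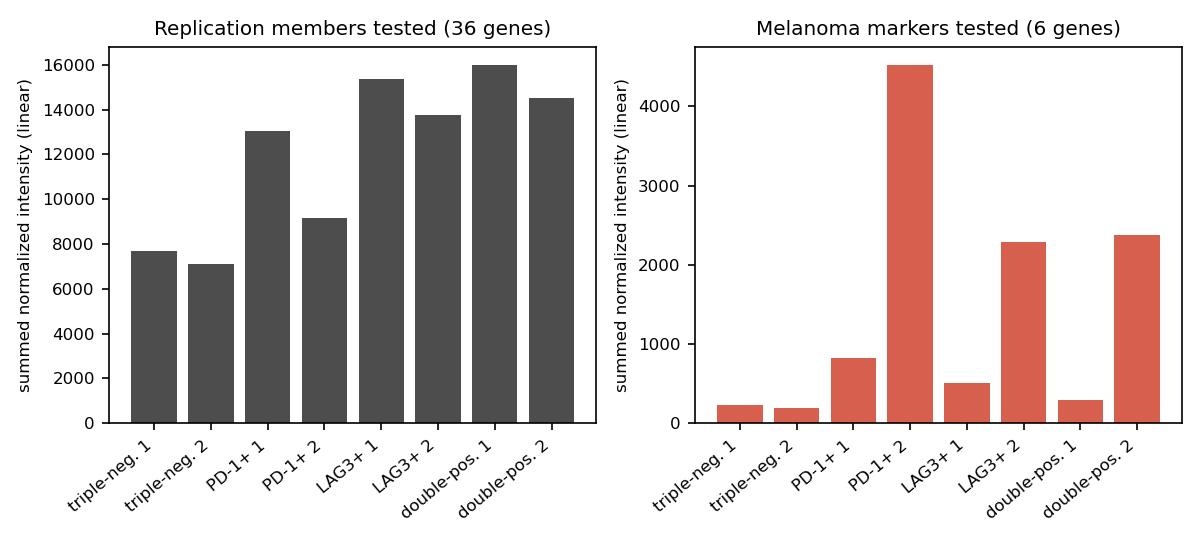
Summed normalized linear intensity (vertical axes, from 0) of the 36 tested members (left) and the 6 tested melanoma markers (right) on the 8 arrays (horizontal axes). The members' sum lies between 7115 and 7669 on the triple-negative arrays and between 9159 and 16000 on the other 6, and the melanoma sum is highest on PD-1+ array 2 at 4525.

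Other genes of the same pathways were read from lists chosen by function. Of 38 other origin and fork factors, 28 were tested. In double-positive against triple-negative cells 0 of them passed, with a median change of 0.38. In PD-1+ against triple-negative cells 1 of them, Orc5, a further subunit of the origin recognition complex, fell and was not detected on either PD-1+ array (4.30 and 4.25, against 6.67 and 6.23, at least 3.02-fold lower, limma adjusted p = 0.0487). In LAG3+ and double-positive cells Orc5 lay between 6.16 and 6.74. Of 30 other genes of nucleotide synthesis, 25 were tested, 0 passed, and the median was 0.03. Those with the largest test statistics were Samhd1, the phosphohydrolase that breaks down deoxynucleotides (-1.99 ± 0.40, limma adjusted p = 0.0860), Ppat, the first enzyme of purine synthesis (2.07 ± 0.60, limma adjusted p = 0.187), and Mthfd1, a folate enzyme (1.15 ± 0.39, limma adjusted p = 0.251). Samhd1 lay at 10.24 and 9.74 on the triple-negative arrays, 8.76 and 9.48 on the PD-1+ arrays, 8.85 and 9.32 on the LAG3+ arrays and 8.23 and 7.77 on the double-positive arrays. Both triple-negative arrays lay above the other 6.

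Of 13 E2F and pocket protein genes, 10 were tested, 0 passed, and the median was 0.20. Tfdp1, which encodes the E2F partner DP1, differed by 2.10 ± 0.72 (limma adjusted p = 0.260) and E2f1 by 2.68 ± 1.19 (limma adjusted p = 0.391). E2f2 was detected only on LAG3+ array 2 and both double-positive arrays, was at least 1.66-fold higher in double-positive than in triple-negative cells, and did not pass (limma adjusted p = 0.346). E2f1 lay at 5.78 and 5.77 on the triple-negative arrays, 8.52 and 4.35 on the PD-1+ arrays, 7.93 and 7.16 on the LAG3+ arrays and 8.09 and 8.83 on the double-positive arrays, with the same split of the PD-1+ arrays as Mcm10. Of 30 mitosis genes, 20 were tested, and 5 rose in double-positive against triple-negative cells: the kinetochore gene Kntc1 (3.76 ± 0.38), the spindle gene Nusap1 (3.36 ± 0.38), the centromeric histone gene Cenpa (2.42 ± 0.34), the mitotic activator Cdc20 (2.73 ± 0.40) and the kinesin Kif15 (3.65 ± 0.57), with limma adjusted p of 0.0130, 0.0164, 0.0315, 0.0342 and 0.0451. Kntc1 and Kif15 were detected on triple-negative array 1 but not on array 2. The median over the 20 was 1.75 in this comparison, 1.46 in LAG3+ and 1.04 in PD-1+ cells, beside 1.14, 0.90 and 0.41 for the 36 replication and nucleotide members.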

How the data were processed

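Total RNA labelled with Cy3 was measured on 8 arrays. Per the file headers, the authors deposited an unnormalized intensity for each probe and array, with no background subtracted as far as the values show. Beside each stands a detection p-value, per the file headers; the scanner software is not named in those sources. The authors also deposited normalized intensities on a linear scale, made by steps not given in the sources used here, and these served as an alternative.

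Of 25697 probes, 23962 were renamed by gene identifier through RefSeq names (GRCm38.p6), 16 kept the platform name, 1037 were named by accession and 682 by the deposited name. The function neqc (limma 3.58.1, R 4.3.3) normalized the intensities to log2 with an offset of 16 and negative controls inferred from detection, and the brightest probe stood for a gene. Genes detected at p under 0.05 on at least 2 arrays were tested, 7893 of 17830. The offset compresses changes of dim genes. The number of arrays limits the precision, with a median standard error of 0.448.

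The 7 comparisons used lmFit and eBayes with 1 mean per population over 8 arrays (4 residual and 2.98 prior degrees of freedom), two-sided, with Benjamini-Hochberg adjustment over all tested genes of a comparison and a threshold of 0.05. The fit was tested on simulated data. The groups, tests and alternatives were set from the labels, but the members, the companion lists and the lists of markers were chosen with earlier results of these data known. Every array's value is given for members past the threshold and, per role, for the brightest probe and the highest and lowest change between double-positive and triple-negative cells. Genes of companion lists were named if past the threshold in any comparison (at most 5), otherwise the 3 largest test statistics. Values of other members and of E2f1 and Samhd1 were added after they were seen. The experiment numbers in the titles were read as pairing the arrays, with a number taken to mark 1 pool of mice. The main fit left this pairing out. Deviations of same-numbered arrays correlated at 0.092 to 0.222 across genes. The block is printed where it changes a call.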

Additional observations from a re-analysis of the deposited data

How the results depend on the processing

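With 2 arrays per population every call lay near the threshold, and dim probes limit what can be read. No change of the 3 called genes or median reversed. With the replicate block, members called went from 1 to 0 for LAG3+ and from 1 to 0 for PD-1+ against triple-negative cells, the double-positive count went from 3 to 4 with Mcm5, and the other 4 counts did not change. With no filter on detection (17830 genes tested) the counts of 3, 1, 1 and, by the LAG3 gate, 2 all became 0, and the LAG3+ median went from 0.90 to 0.68. With array weights they were 5 in double-positive, 3 in LAG3+, 0 in PD-1+ and 1 by the LAG3 gate, and without both PD-1+ arrays 5 and 3. The LAG3+ count was 2 with offset 50, 0 with no background correction and 0 with the mean of detected probes, where the median was 0.74. With offset 50 the medians were 0.92 (double-positive) and 0.65 (LAG3+) against triple-negative cells, 0.53 and 0.35 against PD-1+ cells, and 0.60 by the LAG3 gate. With no background correction they were 0.62, 0.54 and, for PD-1+ cells, 0.20, then 0.40, 0.28 and 0.40. The authors' normalized values and the stricter filter (4 arrays) moved no count past 1.5 times and no median past its spread.

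Leaving out 1 array at a time gave counts of 0 to 5 for double-positive against triple-negative, 0 to 3 for LAG3+ against triple-negative, 0 to 4 for PD-1+ against triple-negative, 0 to 4 for double-positive against PD-1+, 0 to 2 for LAG3+ against PD-1+ and 0 to 13 for the LAG3 gate. The medians ranged over 1.10 to 1.17 for double-positive against triple-negative, 0.85 to 1.09 for LAG3+ against triple-negative, 0.33 to 0.79 for PD-1+ against triple-negative, 0.38 to 0.87 for double-positive against PD-1+, 0.27 to 0.68 for LAG3+ against PD-1+ and 0.75 to 0.99 for the LAG3 gate. The double-positive against LAG3+ count was 0 under each setting run. The cause of these shifts was not tested. The setting with no filter had more genes, and only the settings that left out arrays had fewer of them.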
